A study of Homo sapiens
Mus musculus with 6 samples.

Results

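The genes described here are 8 genes that are widely used as readouts of Notch signalling: Hey1, Heyl, Hey2, Hes1, Nrarp, Gata3, Ccnd1 and Myc. They were chosen by name, with earlier results of these data known. All 8 were found among the 23433 entries kept from the mouse table and among the 11365 mouse genes with enough reads to be tested. Their levels were read in 6 co-culture wells in which mouse C2C12 myoblasts, a skeletal muscle precursor line, met human HEK293-Flp-In embryonic kidney cells. The C2C12-control line and the C2C12-Notch1 line, which stably carries full-length Notch1 and was grown under puromycin, were each placed with 3 HEK partners. HEK-control had no introduced ligand, HEK-Jag1WT carried the wild-type ligand Jag1, and HEK-Jag1Ndr carried the Nodder form of Jag1. Both ligand lines were grown under hygromycin. Cells of both C2C12 lines settled for 8 h and were transfected with 1.6 ug of the plasmid pcDNA5. They met the HEK cells 18 h later for 6 h of contact before lysis. Each of the 6 combinations had 1 well. The labels name no promoter for the introduced genes and do not say whether a line is 1 clone, so the introduced Notch1, the selection and the history of the line cannot be told apart. The same holds for the HEK lines. The form of the ligand, its amount and the history of the line cannot be told apart, nor the selection where HEK-control is compared.

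Notch is a receptor that is cut when a ligand on a neighbouring cell binds it. The freed intracellular part enters the nucleus and, with the DNA-binding protein RBPJ and a Mastermind coactivator, switches on target genes. In muscle precursors Notch signalling is known for holding back differentiation, in part through repressors of the Hes and Hey families. Hey1, Heyl, Hey2 and Hes1 encode such repressors, basic helix-loop-helix proteins. Nrarp encodes a small ankyrin-repeat protein that limits Notch signalling as feedback. Gata3, a zinc finger transcription factor, and Myc, a growth-promoting transcription factor, are best known as Notch targets in T cells and T-cell leukaemia. Ccnd1 encodes cyclin D1, which drives cells through the G1 phase.

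Mouse and human reads of each well were counted in separate tables, with 2263529 to 7965231 mouse reads and 4081452 to 10292878 human reads per well. The HEK-Jag1WT well of the Notch1 line was the shallowest in mouse reads. Mouse reads were 47.2% to 52.7% of all reads in the C2C12-control wells and 29.6% to 36.5% in the C2C12-Notch1 wells. Mouse Notch1 stood at 9.06 to 20.4 RPKM (reads scaled to gene length and to the mouse total of the well) in the C2C12-control wells and at 158 to 179 RPKM in the C2C12-Notch1 wells. Jag1, whose reads in the mouse table come with the HEK line, had 110 and 280 reads beside HEK-control and 42347 to 63416 beside the ligand lines. With HEK-Jag1WT and HEK-Jag1Ndr it stood at 1670 and 1450 RPKM in the C2C12-control wells. In the C2C12-Notch1 wells it stood at 3770 and 2990 RPKM. The mix of species and the Jag1 level per mouse read thus differed with the C2C12 line, and their part in differences between the lines was not tested. The median of 13 C2C12 markers, averaged over the wells, was 129 RPKM in the mouse table and 0.209 in the human table, and 1 of them, Thy1, had no mouse reads. The median of 13 HEK markers was 25.6 RPKM in the human and 1.27 in the mouse table. Of these 4 had no mouse reads, and human EPCAM and KRT18 among them had 12151 and 3737. Other markers of that list went the other way, with 3072 mouse reads against 1 human read for STMN2 and 2517 against 71 for NEFM, and NEFL had 6747 mouse and 12762 human reads. A level scaled to all mouse reads cannot tell a change in every cell from a change in the share of cells that use it.

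Hey1 differed by HEK partner in both C2C12 lines. In C2C12-control cells it stood at 15.1 RPKM with HEK-control (133 reads), 40.1 with HEK-Jag1Ndr (705 reads) and 119 with HEK-Jag1WT (1215 reads). C2C12-Notch1 cells had 38.1 RPKM (437 reads), 81.9 (695 reads) and 176 (879 reads) with the same partners. The 3 partners separated in the same order in each line, and with each partner the C2C12-Notch1 well was the higher one. The C2C12-Notch1 well without introduced ligand and the HEK-Jag1Ndr well of the control line were close, with 95% counting intervals of 34.6 to 41.8 and 37.2 to 43.1 RPKM. Counting intervals here cover counting error only.

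Heyl also differed by HEK partner, but its highest level was in the control line. In C2C12-control cells it stood at 6.94 RPKM with HEK-control (126 reads), 27.5 with HEK-Jag1Ndr (993 reads) and 111 with HEK-Jag1WT (2325 reads). In C2C12-Notch1 cells it stood at 5.98 (141 reads), 14.1 (246 reads) and 33.1 RPKM (339 reads). The HEK-control wells of both lines had overlapping counting intervals, 5.78 to 8.26 and 5.04 to 7.06 RPKM. Beside either ligand the C2C12-Notch1 well was the lower one.

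Hey2, the third family member, was near the limit of detection. It had 0, 4 and 5 reads in C2C12-control cells with HEK-control, HEK-Jag1Ndr and HEK-Jag1WT, and 6, 11 and 11 reads in C2C12-Notch1 cells. These were 0, 0.198 and 0.427 RPKM in the control line and 0.456, 1.13 and 1.92 RPKM in the Notch1 line. In the well with 0 reads, the counting interval ran from 0 to 0.365 RPKM. The 3 C2C12-Notch1 wells lay above the 3 C2C12-control wells, although several of the counting intervals overlapped.

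Hes1 was present at a middling level in every well and moved less. In C2C12-control cells it stood at 19.1, 28 and 33.7 RPKM with HEK-control, HEK-Jag1Ndr and HEK-Jag1WT (111, 324 and 226 reads). Levels in C2C12-Notch1 cells were 29.5, 31 and 32.2 RPKM (223, 173 and 106 reads). The lowest well was the one with the control line and no introduced ligand. The other 5 wells lay between 28 and 33.7 RPKM, with overlapping counting intervals.

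Nrarp went from barely detected to clearly present. In C2C12-control cells it had 2 reads with HEK-control, 16 with HEK-Jag1Ndr and 75 with HEK-Jag1WT, or 0.195, 0.779 and 6.3 RPKM. In C2C12-Notch1 cells it had 10, 22 and 174 reads, or 0.747, 2.22 and 29.9 RPKM. The 2 wells with HEK-Jag1WT stood above the other 4, and the C2C12-Notch1 well was by far the highest. Its counting interval was 25.6 to 34.7 RPKM, against 4.96 to 7.9 RPKM in the C2C12-control well with the same partner.

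Gata3 was low throughout, and its highest well in each line was the one with HEK-Jag1WT. It stood at 3.55, 4.27 and 6.93 RPKM in C2C12-control cells with HEK-control, HEK-Jag1Ndr and HEK-Jag1WT (46, 110 and 103 reads). C2C12-Notch1 cells had 4.69, 4.37 and 7.37 RPKM (79, 54 and 54 reads). The wells with HEK-control and HEK-Jag1Ndr had overlapping counting intervals in each line, and the lines overlapped with each partner.

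Ccnd1 went the other way. It stood at 158, 141 and 119 RPKM in C2C12-control cells with HEK-control, HEK-Jag1Ndr and HEK-Jag1WT (2392, 4267 and 2082 reads). In C2C12-Notch1 cells it stood at 141, 121 and 99.9 RPKM (2785, 1762 and 857 reads). The well with HEK-Jag1WT was the lowest of each line, and the C2C12-Notch1 well was the lower one with each partner.

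Myc differed between the C2C12 lines. It stood at 31.8, 33.9 and 34 RPKM in C2C12-control cells with HEK-control, HEK-Jag1Ndr and HEK-Jag1WT (305, 649 and 377 reads). Levels in C2C12-Notch1 cells were 48.1, 50.8 and 46.6 RPKM (600, 468 and 253 reads). The 3 wells of one line did not overlap the 3 of the other, and within a line the counting intervals of all partners overlapped.

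**Figure D1:**
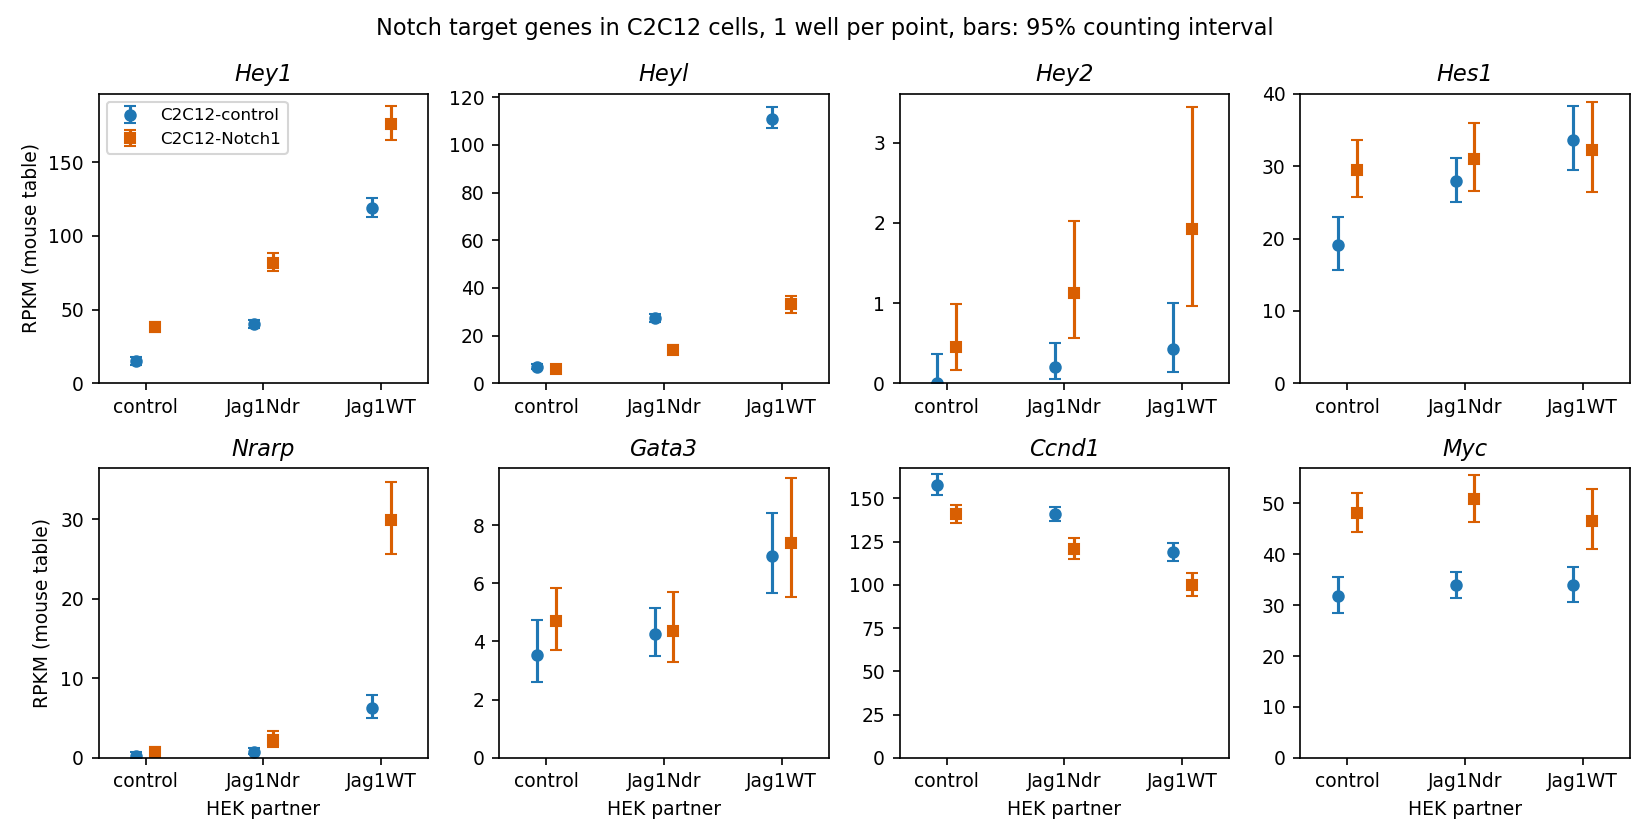
RPKM of each gene (vertical axis, starting at 0, a separate scale per gene) by HEK partner (horizontal axis) in C2C12-control wells (circles) and C2C12-Notch1 wells (squares), 1 well per point, with 95% counting intervals as bars. Hey1, Heyl and Nrarp climb from HEK-control to HEK-Jag1WT in both lines, Ccnd1 descends, and Myc is set apart by line, at 31.8 to 34 RPKM against 46.6 to 50.8.

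The order of levels per gene length changed with the HEK partner. In the HEK-control well of the control line, Ccnd1 was highest, followed by Myc, Hes1, Hey1, Heyl, Gata3, Nrarp and Hey2, with Hes1 and Hey1 (counting intervals 15.7 to 23 and 12.7 to 17.9 RPKM) not separated, nor Nrarp and Hey2. With HEK-Jag1WT in the same line, Hey1, Ccnd1 and Heyl stood together at 119, 119 and 111 RPKM, with overlapping intervals of 113 to 126, 114 to 124 and 107 to 116. In the HEK-Jag1WT well of the Notch1 line, Hey1 was highest at 176 RPKM, and Nrarp at 29.9 RPKM overlapped Hes1 at 32.2 and Heyl at 33.1. Of the 8 genes, 5 (Hey1, Heyl, Hey2, Hes1 and Nrarp) increased from HEK-control through HEK-Jag1Ndr to HEK-Jag1WT in both lines, an order shown by 4.25% of all tested genes. The reverse order in both lines was shown by Ccnd1, and by 8.24% of all tested genes, so that single case among 8 is near the background. Not every step of the rising order was outside counting error. In the Notch1 line Hes1 was 1.08-fold above HEK-control with HEK-Jag1Ndr (0.878 to 1.32) and 1.13-fold with HEK-Jag1WT (0.889 to 1.43). Hey2 beside HEK-Jag1Ndr was not separated from either other partner in either line. Nor was Nrarp beside HEK-Jag1Ndr from HEK-control in the control line (0.951 to 36.3).

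The first comparison asked which of these genes responded to cells carrying wild-type Jag1. Beside HEK-Jag1WT, 5 of the 8 genes rose (Hey1, Hey2, Hes1, Nrarp and Gata3), Ccnd1 fell, and Heyl and Myc did not pass. Among all tested genes 2.7% rose and 1.76% fell. The median log2 difference of the 8 genes was 1.59, against 0.00 over all genes (-3.63e-05). The fit took both C2C12 lines together, with wells that share a line standing in as replicates, so each HEK partner had 2 wells. As the 8 genes were chosen with earlier results known, counts of them set against all genes are descriptive here and below.

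Nrarp stood 5.27 higher on the log2 scale (SE 0.275, edgeR adjusted p 9.88e-23), the third largest in size of all 11365 genes. Hey1 rose by a log2 difference of 2.56 (SE 0.161, adjusted p 0.000156). Gata3 rose by 0.82 (SE 0.184, adjusted p 0.00178), Hes1 by 0.50 (SE 0.128, adjusted p 0.0085) and Hey2 by 2.35 (SE 0.678, adjusted p 0.027). Ccnd1 fell by 0.42 on the log2 scale (SE 0.0589, adjusted p 4.15e-07), and Myc stood at 0.06 (SE 0.0893, adjusted p 0.846).

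Heyl had a larger log2 difference than Hey1, 3.41 (SE 0.461), but its edgeR adjusted p was 0.165 in the robust fit. Its wells with HEK-Jag1WT were 16.2-fold above HEK-control in the control line (counting interval 13.5 to 19.5) and 5.72-fold (4.69 to 7.01) in the Notch1 line. The additive fit treats this unequal response as spread. Heyl passed without the robust option of the fit (edgeR adjusted p 2.22e-25) and with DESeq2 (7.39e-08), and its adjusted p ranged from 3.25e-280 to 0.403 over the alternatives tried.

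The calls of Hes1, Gata3 and Hey2 rested on few wells. With 1 well left out, the log2 difference of Hes1 ranged from 0.25 to 0.80, being 0.25 without the HEK-control well and 0.27 without the HEK-Jag1WT well of the control line, and 0.80 without the HEK-control well of the Notch1 line. That of Hey2 was 5.24 without the HEK-control well of the Notch1 line. Without the HEK-control well of the control line their edgeR adjusted p values were 0.46, 0.0887 and 0.115, and without the HEK-Jag1WT well of the control line they were 0.643, 0.111 and 0.123. Hey2 was also lost without either C2C12-Notch1 well of the comparison (0.314 and 0.352), and DESeq2 called none of the 3 (0.941, 0.583 and 0.929). Over the alternatives Hes1 had adjusted p values of 7.08e-05 to 0.941, Gata3 of 0.00048 to 0.583 and Hey2 of 0.0239 to 0.929.

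The next comparison asked the same of the Nodder ligand. Beside HEK-Jag1Ndr, 1 of the 8 genes rose, Nrarp, and none fell, while among all tested genes 0.431% rose and 0.0968% fell. At an unadjusted p under 0.05, edgeR had Hey1, Hey2, Hes1 and Nrarp higher and Ccnd1 lower. By this p Hey2 (0.0365) ranked 645 and Heyl (0.075) 1139 of 11365 genes, and the number of all genes under 0.05 lies between these ranks. DESeq2 called Hey1 (adjusted p 0.00754) and no other member, and limma called 0. Among all genes DESeq2 called 7 and limma on log2(RPKM + 1) called 1, so the limma count says little about the members. The median log2 difference of the 8 genes was 0.75, against 0.00 (0.003) over all genes. HEK-control wells are shared with the comparison above, so the values of both ligands rest in part on the same wells.

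Nrarp stood 1.79 higher on the log2 scale (SE 0.446, edgeR adjusted p 0.0395). Hey1 stood at 1.197 (SE 0.17, adjusted p 0.0581), Heyl at 1.61 (SE 0.516, adjusted p 0.749) and Hey2 at 1.49 (SE 0.695, adjusted p 0.642). Hes1 stood at 0.30 (adjusted p 0.468), Ccnd1 at -0.17 (adjusted p 0.251), Myc at 0.11 (adjusted p 0.858) and Gata3 at 0.09 (adjusted p 0.966). The Nrarp and Hey1 results lay near the threshold. Nrarp was lost without the HEK-control well of the Notch1 line (0.805), the HEK-Jag1Ndr well of the control line (0.273) or the HEK-Jag1WT well of the Notch1 line (0.0512), in a range from 0.0172 to 1. Hey1 passed under 10 of the 15 alternatives, in a range from 3.54e-41 to 0.656.

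Within each line the Hey1 and Heyl responses to HEK-Jag1Ndr were outside counting error. Hey1 was 2.68-fold above HEK-control in the control line (counting interval 2.22 to 3.25) and 2.21-fold (1.96 to 2.49) in the Notch1 line. Heyl was 3.99-fold (3.31 to 4.84) and 2.42-fold (1.96 to 3) above it. These are ratios of 1 well to 1 well and were not tested.

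The ligands were then set against each other. Beside HEK-Jag1Ndr 3 of the 8 genes were lower than beside HEK-Jag1WT (Nrarp, Hey1 and Gata3) and 1 was higher (Ccnd1), where among all tested genes 1.35% were lower and 0.686% higher. Nrarp stood at -3.48 on the log2 scale (SE 0.215, edgeR adjusted p 5.23e-19), the second largest in size of all tested genes. Hey1 stood at -1.36 (SE 0.138, adjusted p 0.00431) and Gata3 at -0.73 (SE 0.172, adjusted p 0.00715). Ccnd1 stood 0.25 higher (SE 0.0588, adjusted p 0.00697).

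The remaining 4 genes did not pass in the comparison of ligands. Heyl stood at -1.80 (SE 0.366, adjusted p 0.422), Hey2 at -0.86 (adjusted p 0.694), Hes1 at -0.20 (adjusted p 0.627) and Myc at 0.04 (adjusted p 0.953). In single wells Heyl beside HEK-Jag1Ndr was 0.246 of its level beside HEK-Jag1WT in the control line (counting interval 0.228 to 0.265) and 0.423 (0.358 to 0.5) in the Notch1 line.

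Gata3 and Ccnd1 lost their calls without the HEK-Jag1WT well of the control line (edgeR adjusted p 0.388 and 0.191), the HEK-Jag1Ndr well of the control line (0.0802 and 0.0936) or the HEK-Jag1Ndr well of the Notch1 line (0.102 and 0.0513), and Ccnd1 also without the HEK-Jag1WT well of the Notch1 line (0.3). Their ranges over the alternatives were 0.000773 to 0.483 and 0.0015 to 0.483.

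The last comparison asked how the 8 genes differed between the C2C12 lines across partners. In the C2C12-Notch1 line 4 of the 8 were higher (Nrarp, Hey2, Hey1 and Myc) and 1 was lower (Ccnd1). The lines differed widely, with 28.4% of all tested genes higher and 29.4% lower, so 5 of 8 called is a share near the background. Nrarp stood 2.11 higher on the log2 scale (SE 0.191, edgeR adjusted p 2.27e-14), Hey2 2.44 higher (SE 0.532, adjusted p 9.31e-05) and Hey1 0.87 higher (SE 0.125, adjusted p 0.000967). Myc stood 0.54 higher (SE 0.0695, adjusted p 1.68e-09), and Ccnd1 fell by 0.22 on the log2 scale (SE 0.0473, adjusted p 6.93e-05). The wells of the lines did not overlap for Myc and Hey2, both higher in the Notch1 line, a separation seen in 29.7% of tested genes, and no member had all 3 Notch1 wells below all 3 control wells, as 28.9% of tested genes had.

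Hes1 stood at 0.22 (adjusted p 0.0546), Gata3 at 0.15 (adjusted p 0.4) and Heyl at -1.24 (SE 0.358, adjusted p 0.0977) between the lines. Heyl passed under 8 of the 15 alternatives, in a range from 9.02e-77 to 0.27. Its log2 difference was -0.75 without the HEK-Jag1WT well of the control line (adjusted p 7.16e-12) or without the HEK-Jag1WT well of the Notch1 line (1.15e-12).

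**Figure D2:**
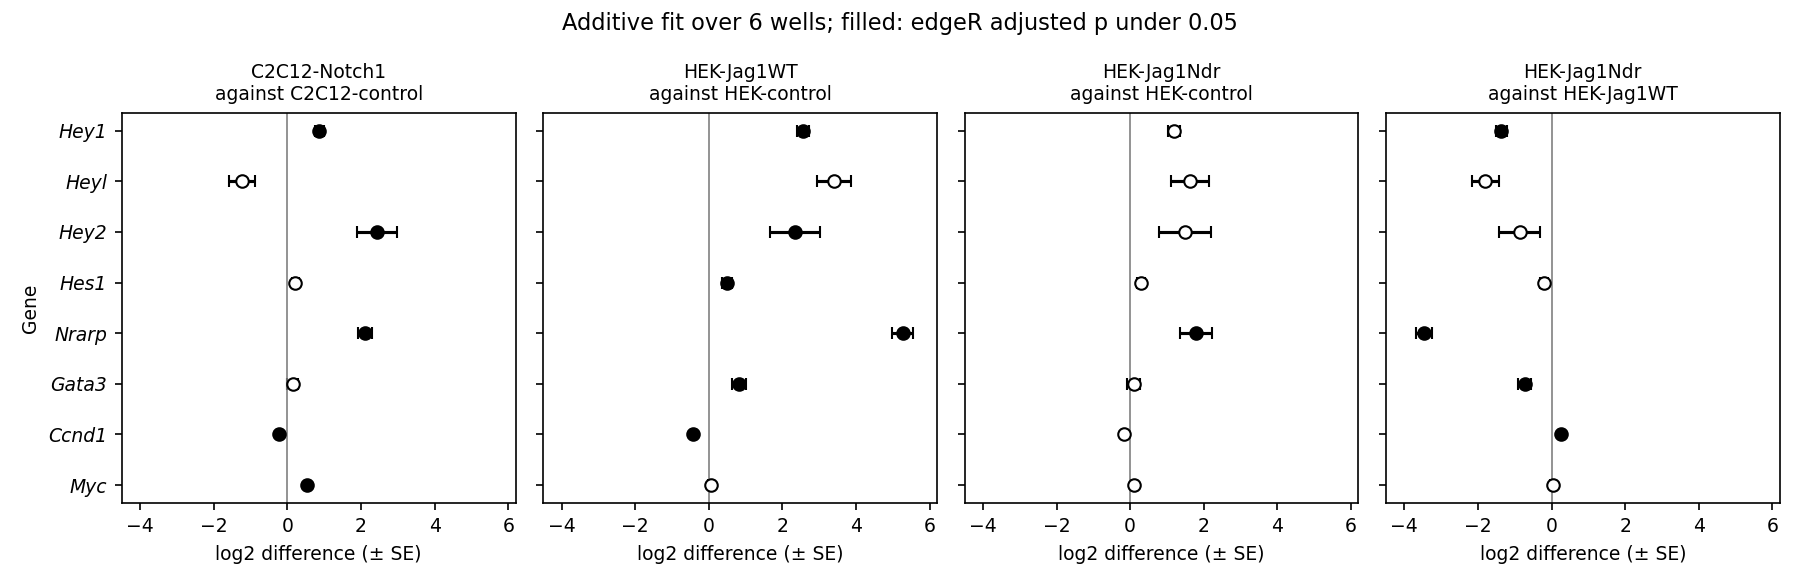
Log2 difference with its SE (horizontal axis) for each gene (vertical axis) in 4 comparisons, from 1 additive fit over the 6 wells. Filled points passed an edgeR adjusted p of 0.05: 6 of 8 beside HEK-Jag1WT, 1 of 8 beside HEK-Jag1Ndr, 4 of 8 between the ligands and 5 of 8 between the C2C12 lines. Heyl is open in all panels although its differences are among the largest.

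The ratio of the lines was then read with each partner, 1 well against 1 well, and whether it differed between partners was not tested. Heyl in the Notch1 line was 0.843 of its level in the control line beside HEK-control (counting interval 0.658 to 1.08), 0.512 (0.444 to 0.59) beside HEK-Jag1Ndr and 0.298 (0.265 to 0.334) beside HEK-Jag1WT. Hey1 was 2.47-fold (2.03 to 3.03), 2.04-fold (1.83 to 2.27) and 1.48-fold (1.35 to 1.61) higher in the Notch1 line with the same partners. Hes1 was 1.51-fold higher in the Notch1 line beside HEK-control (1.2 to 1.92), and beside HEK-Jag1WT the ratio was 0.958 (0.753 to 1.21). Nrarp was 4.74-fold higher in the Notch1 line beside HEK-Jag1WT (3.59 to 6.3), and with 2 reads against 10 beside HEK-control the ratio of 3.77 had an interval of 0.803 to 35.3. For Hey2 beside HEK-control, 6 reads stood against 0, and the lower counting limit of the log2 ratio was -0.17, so no difference was detectable at this depth.

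Put as responses to HEK-Jag1WT, on the log2 scale with a prior count of 2 reads, Heyl stood at 3.999 in the control line and at 2.50 in the Notch1 line. That gap of -1.50 was the largest among the 5475 genes with at least 100 reads in all 4 wells. In 0.0913% of those genes, 5 in all, the response differed by 1 or more on the log2 scale between the lines. The other 4 were named after their values were seen. They were the nuclear RNA gene Neat1 (-1.32), the collagen genes Col6a2 (1.31) and Col6a1 (1.18), and Notch1 itself (-1.10). In the control line Notch1 went from 9.06 RPKM with HEK-control to 20.4 with HEK-Jag1WT, a log2 response of 1.19. In the Notch1 line, which carries the introduced gene, its response was 0.09. For Hey1 the gap was -0.73, a size reached or exceeded by 9 of the 5475 genes with Hey1 counted. Hes1 had one of -0.65 (20 genes), Myc -0.11 and Ccnd1 -0.06. Nrarp, with under 100 reads in most wells, had 4.18 and 5.08, a gap of 0.90. With 2 reads in 1 of its wells, this gap depends on the prior count. Without it the responses were 32.9-fold (counting interval 8.8 to 277) and 41.4-fold (22 to 87.9), with overlapping intervals. Hey2 had a gap of -0.05 and Gata3 of -0.26. Each gap rests on 4 single wells and was not tested. The lines also differed in the share of mouse reads and in Jag1 per mouse read, which cannot be told apart from the line.

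**Figure D3:**
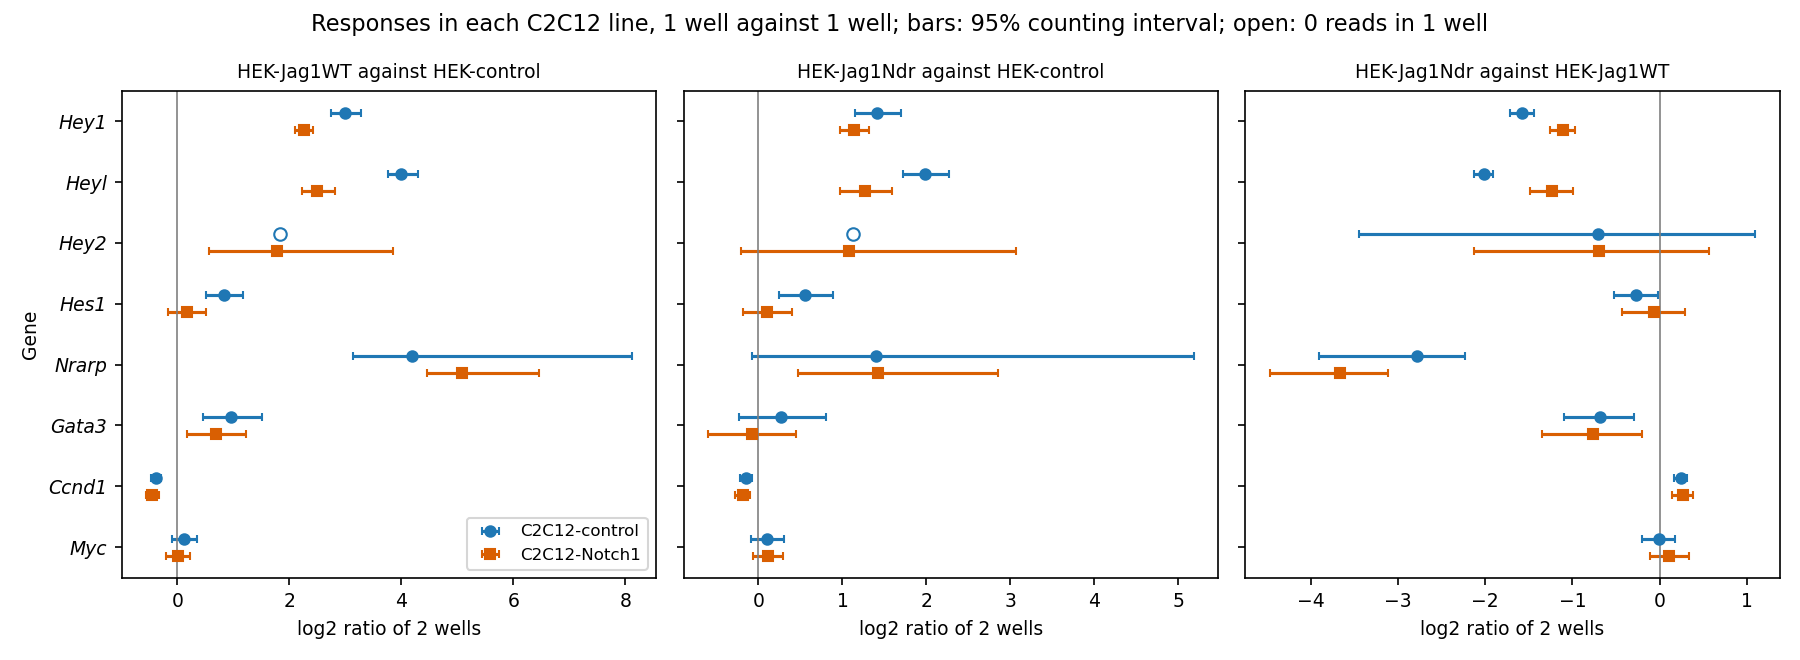
Log2 ratio of 1 well to 1 well (horizontal axis) for each gene (vertical axis) in C2C12-control (circles) and C2C12-Notch1 cells (squares), with 95% counting intervals; an open symbol has 0 reads in 1 well and no upper limit, so no bar is drawn. Beside HEK-Jag1WT the intervals of the lines do not overlap for Hey1 (2.74 to 3.27 against 2.09 to 2.43) and Heyl (3.76 to 4.29 against 2.23 to 2.81), and Ccnd1 is left of 0 in both lines.

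The make-up of Hey family transcripts differed between the lines. In C2C12-control cells the 3 genes summed to 22.1, 67.7 and 231 RPKM with HEK-control, HEK-Jag1Ndr and HEK-Jag1WT, and Heyl was 31.5%, 40.6% and 48.1% of the sum. In C2C12-Notch1 cells the sums were 44.5, 97.2 and 211 RPKM, and Heyl was 13.4%, 14.5% and 15.6%. Hey1 thus stood at 2.18, 1.46 and 1.07 times the level of Heyl in the control line and at 6.36, 5.8 and 5.33 times in the Notch1 line. The 3 wells of each line did not overlap in this ratio, for which no share over other pairs of genes was worked out. For single genes, the Notch1 wells lay all above the control wells in 29.7% of tested genes and all below in 28.9%. Hey2 was at most 1.16% of the sum.

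**Figure D4:**
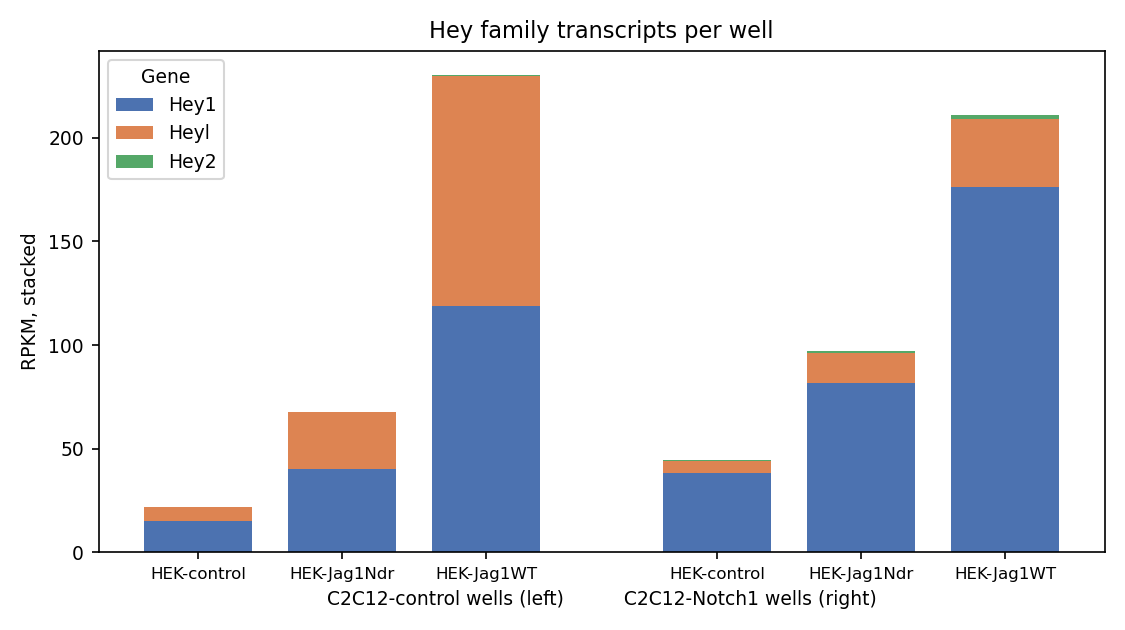
Stacked RPKM (vertical axis, from 0) of Hey1, Heyl and Hey2 in each of the 6 wells, with the C2C12-control wells on the left and the C2C12-Notch1 wells on the right. The wells with HEK-Jag1WT reach sums of 231 and 211 RPKM, of which Heyl is 48.1% in the control line and 15.6% in the Notch1 line.

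Genes with the most similar profile over the 6 wells, with Jag1 left out, were sought for Hey1, Heyl and Nrarp, by the root mean square difference of log2 levels after each gene's own mean was subtracted. Dio2, which activates thyroid hormone, was nearest to Hey1 of 11363 genes (0.316), with 4.63, 7.57 and 19.3 RPKM in the control line and 6.98, 13.7 and 30 in the Notch1 line with HEK-control, HEK-Jag1Ndr and HEK-Jag1WT. Wisp2 (0.393) and B3gnt8 (0.469) came next. Nearest to Heyl were Prelp, a leucine-rich proteoglycan gene (0.246), Mcpt1 (0.249) and Gpr133, an adhesion receptor gene (0.535). Mcpt1 stood at 0.244, 2.68 and 10 RPKM in the control line and 0.281, 0.759 and 3.88 in the Notch1 line, so it too was higher in the control line beside either ligand. Prelp and Mcpt1 had as few as 1 read in a well and at most 55 and 48.

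Nearest to Nrarp were Gpbar1, a bile acid receptor gene (0.927), Hey1 (1.04) and 8430408G22Rik (1.04). Gpbar1 had 0 to 25 reads per well. Hey2 ranked 8 among the genes nearest to Hey1, and Heyl ranked 473. These are descriptions of 6 wells that share lines and cover no replicate error.

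A list, chosen like those below with earlier results of these data known, held 20 other genes reported as Notch targets. Of these 12 were tested, and beside HEK-Jag1WT 3 rose and 1 fell, with a median log2 difference of 0.21, where 2.7% of all tested genes rose and 1.76% fell. DESeq2 and limma called 2 each. Over all genes DESeq2 and limma on log2(RPKM + 1) called 148 and 180 beside HEK-Jag1WT. They called 7 and 1 beside HEK-Jag1Ndr, and 41 and 6 between the ligands. A count of 0 from these tools in a list therefore says little. Notch3, a Notch receptor gene, rose by 0.95 (edgeR adjusted p 1.49e-08). Pdgfrb, a platelet-derived growth factor receptor gene, rose by 0.73 (adjusted p 1.02e-11) and Snai1, a repressor of epithelial genes, by 0.42 (adjusted p 0.0123). Bcl6, a transcriptional repressor gene, was lower, at -0.75 (adjusted p 0.00488). Its levels were 6.87, 6.07 and 4.08 RPKM in the control line and 7.43, 5.66 and 4.24 in the Notch1 line with HEK-control, HEK-Jag1Ndr and HEK-Jag1WT. Beside HEK-Jag1Ndr 1 of the 12 rose, Pdgfrb at 0.27 (adjusted p 0.0494), near the threshold, where 0.431% of all tested genes rose. DESeq2 and limma called 0 of the 12 there. Against HEK-Jag1WT 2 of the 12 were lower beside HEK-Jag1Ndr, Notch3 at -0.69 and Pdgfrb at -0.46, where 1.35% of all tested genes were lower. DESeq2 called 2 in that comparison and limma 0. Between the C2C12 lines 6 were higher and 3 lower, beside 28.4% and 29.4% of all tested genes.

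The genes of the transcription complex came next. Of 19 tested genes for RBPJ, Mastermind coactivators and repressors, 0 rose and 1 fell beside HEK-Jag1WT, with a median of 0.01 (0.00567). That count was near the 2.7% and 1.76% of all tested genes. Beside HEK-Jag1Ndr 0 passed, where 0.431% of all tested genes rose and 0.0968% fell. There edgeR gave 0 of the 19 an unadjusted p under 0.05, and DESeq2 and limma also called 0. Beside HEK-Jag1WT 4 of the 19 had an unadjusted p under 0.05, and DESeq2 and limma called 0. There Heyl, at an unadjusted edgeR p of 0.0123, ranked 845 of 11365 genes, so at least that many genes were under 0.05. The exact share of all genes at an unadjusted p is not given here for any list. The one that fell was Tle2, a Groucho-family corepressor gene, at -0.94 (edgeR adjusted p 0.00472). Rbpj itself stood at -0.30 (adjusted p 0.337). Between the ligands 1 of the 19 was higher beside HEK-Jag1Ndr than beside HEK-Jag1WT and 0 were lower. It was Tle2 again, at 0.81 (edgeR adjusted p 0.0284), where 0.686% of all tested genes were higher and 1.35% lower. DESeq2 and limma called 0 in that comparison. Between the C2C12 lines 5 of the 19 were higher and 5 lower, near the background of 28.4% and 29.4%, and Rbpj was lower in the Notch1 line, at -0.55 (adjusted p 3.87e-05).

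Of 22 tested genes for receptors and their processing, 2 rose beside HEK-Jag1WT and 1 fell, beside 2.7% and 1.76% of all tested genes, and DESeq2 called 2 and limma 1. Those that rose were Notch3 and Dtx4, a Deltex ubiquitin ligase gene, at 0.58 (adjusted p 2.14e-06). The one that fell was Psen2, a subunit gene of the receptor-cutting gamma-secretase, at -0.88 (adjusted p 0.047). Beside HEK-Jag1Ndr 0 of the 22 passed with edgeR, DESeq2 or limma, where edgeR had 0.431% of all tested genes higher and 0.0968% lower. Of the 22, 2 had an unadjusted p under 0.05 with edgeR. Compared directly, 2 were lower there than beside HEK-Jag1WT, Notch3 and Dtx4, where 1.35% of all tested genes were lower. In that comparison DESeq2 called 1 and limma 0. Dtx4 stood at 11.7, 15.3 and 20.4 RPKM in the control line and 21.8, 23.6 and 27.3 in the Notch1 line with HEK-control, HEK-Jag1Ndr and HEK-Jag1WT. In the Notch1 line 6 were higher and 7 lower, near the 28.4% and 29.4% of all tested genes.

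Relatives of the Hes and Hey genes were read in the same way. Of 12, 6 were tested, and Hes5, a Notch target in neural cells, had no mouse reads in any well. Beside HEK-Jag1WT 2 rose, Id3 at 0.93 (adjusted p 4.21e-10) and Bhlhe40 at 0.27 (adjusted p 0.0136), against 2.7% of all tested genes, and DESeq2 and limma called 1 each. Beside HEK-Jag1Ndr 3 rose, Id1 at 0.71, Id2 at 0.85 and Id3 at 0.82, against 0.431% of all tested genes, and DESeq2 called 1 and limma 0. Id1 and Id2 were higher beside HEK-Jag1Ndr than beside HEK-Jag1WT, by 0.44 (adjusted p 0.0169) and 0.67 (adjusted p 0.000718), but DESeq2 and limma called 0 in that comparison. Among all tested genes 0.686% were higher there with edgeR. In the Notch1 line 4 of the 6 were higher and 2 lower, beside 28.4% and 29.4% of all tested genes.

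Relatives of Ccnd1 and Myc were read last. Of 11 tested cyclin D and G1 genes, 0 passed in any of the 3 comparisons of HEK partners with edgeR, DESeq2 or limma. Over those comparisons edgeR had at most 2.7% of all tested genes higher and at most 1.76% lower. Of the 11, 4 had an unadjusted edgeR p under 0.05 beside HEK-Jag1WT, 2 beside HEK-Jag1Ndr and 1 between the ligands. As in the other lists, unadjusted counts have no exact share of all genes beside them and are not read as a result. Between the C2C12 lines 6 were higher and 3 lower, beside 28.4% and 29.4% of all tested genes, with Ccnd2 at 0.63 (adjusted p 1.07e-14). The smallest adjusted p beside HEK-Jag1WT was that of Cdkn1a, a cell cycle inhibitor gene, at -0.16 (0.122). Of 14 tested genes of the Myc family and Myc targets, 0 passed in the comparisons of HEK partners with any of the 3 tools, and 2, 3 and 1 had an unadjusted p under 0.05 with edgeR in the same order. Between the C2C12 lines 7 were higher and 5 lower, against the same shares of all genes, with the nucleolar genes Nop56 at 0.86 and Nop58 at 0.72 higher and Ldha, for lactate dehydrogenase, at -0.71.

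The human counterparts of the 8 genes were read in the same wells, since HEK cells also use them. Human NRARP had 251 to 695 reads per well, and in the HEK-control well of the control line mouse Nrarp had 2 reads beside 265 human ones, or 0.755 per 100. Human HEY2 had 116 to 449 reads per well, where mouse Hey2 had 0 to 11. NRARP stood at 24.8, 17.7 and 18.6 RPKM in the control-line wells with HEK-control, HEK-Jag1Ndr and HEK-Jag1WT and at 25.7, 19.6 and 17.8 in the Notch1-line wells. HEY2 stood at 14.1, 19.5 and 8.39 RPKM and at 16.3, 19.6 and 10.6 in the same order. HEY1 was higher in the ligand wells in both species. It stood at 31.4 RPKM in both HEK-control wells, 43.7 and 51.5 with HEK-Jag1Ndr and 58.1 and 65.6 with HEK-Jag1WT.

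CCND1 was lower beside HEK-Jag1WT in the human table as well, at 27.8 and 28.1 RPKM against 50.6 and 50.5 in the HEK-control wells and 56.8 and 56.9 with HEK-Jag1Ndr. Its part in the fall of mouse Ccnd1 was not tested. MYC stood at 97.2 and 95.8 RPKM with HEK-control, 47 and 55.3 with HEK-Jag1Ndr and 22.8 and 26.1 with HEK-Jag1WT, a spread that mouse Myc did not show. HES1 stood at 16.7 and 19.3 RPKM beside HEK-Jag1WT and 24.8 to 34.2 in the other wells, HEYL at 3.77 and 5 against 8.3 to 9.55, and GATA3 at 3.48 to 6.63 throughout.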

How the data were processed

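PolyA RNA was made into TruSeq libraries, which do not mark strand, per the labels' protocols. The submitters' processing notes list STAR with mm9 and hg19. How genes were counted and species separated is not given in the sources used here. Per the file headers, the authors deposited read counts and RPKM values for RefSeq genes, 1 mouse and 1 human table. Exact repeats were left out (472 mouse and 448 human entries). Columns were matched to wells by title.

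Mouse counts were fitted with edgeR 4.0.16 in R 4.3.3 (TMM, filterByExpr, robust quasi-likelihood test, Benjamini-Hochberg adjustment over all 11365 tested genes, threshold 0.05). The additive model had a term for the C2C12 line and one for the HEK line over 6 wells, with 2 residual degrees of freedom, and was tested on simulated data. Wells sharing a line served as replicates. With 1 well per combination, the spread in the fit is what the additive terms leave over. Unequal responses of the C2C12 lines count as spread there, mixed with well-to-well noise, possibly technical. No label names separate cultures, so p-values measure no spread between repeated wells or cultures. Levels are the deposited RPKM values. Ratios of single wells used TMM-scaled reads with exact conditional 95% intervals (Poisson intervals for levels), and log2 ratios a prior count of 2. Alternatives were DESeq2 1.42.0, limma 3.58.1 on log2(RPKM + 1) or log2(RPKM + 0.1), other scaling and filters, and leaving out each well.

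The 8 genes were all named. The 3 nearest genes for Hey1, Heyl and Nrarp and, from each list, at most 4 genes with the lowest p were added by rule. Members and lists were chosen with earlier results of these data known.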

Additional observations from a re-analysis of the deposited data

Results flagged for a closer look

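Gata3 and Myc each moved in opposite directions in the C2C12 lines in 1 comparison, on single wells, and these differences were not tested. Beside HEK-Jag1Ndr against HEK-control, Gata3 stood at 0.27 (0.2654) on the log2 scale in C2C12-control cells and at -0.07 (-0.07308) in C2C12-Notch1 cells, with counting intervals of -0.23 to 0.80 and -0.60 to 0.44. Beside HEK-Jag1Ndr against HEK-Jag1WT, Myc stood at -0.01 (-0.01176) in C2C12-control cells and at 0.11 (0.1098) in C2C12-Notch1 cells, with counting intervals of -0.20 to 0.18 and -0.11 to 0.34. All 4 intervals include 0.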

How the results depend on the processing

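Among the 8 genes and 4 comparisons, 383 recomputed differences kept their direction and their side of the threshold, 50 were no longer called, 39 became called and 4 changed sign. The number of genes called beside HEK-Jag1WT (6) was 1 with limma on log2(RPKM + 1) without a filter and 3 to 7 when 1 well was left out, 3 without the HEK-control well of the control line. Beside HEK-Jag1Ndr (1) it was 0 with library size scaling and in each of the 3 limma fits, 2 with no filter or with Jag1 and Notch1 left out, 3 without the robust option, and 1 to 3 when 1 well was left out. Between the ligands (4) it was 1 with DESeq2, which gave 4 of the 8 genes an adjusted p, 0 or 1 with limma, and 2 to 5 when 1 well was left out. Between the C2C12 lines (5) it was 5 to 7. The sign changes were all of genes not called. With 1 well left out, Gata3 beside HEK-Jag1Ndr ranged from -0.05124 to 0.2615, being -0.05124 without the HEK-control well and -0.01654 without the HEK-Jag1Ndr well of the control line. Between the ligands Hes1 ranged from -0.3504 to 0.04761, the last without the HEK-Jag1WT well of the control line, and Myc from -0.01043, without the HEK-Jag1WT well of the Notch1 line, to 0.1102. The causes were not tested. Counts of all genes called fell from 507 to 148 beside HEK-Jag1WT, from 60 to 7 beside HEK-Jag1Ndr, from 231 to 41 between the ligands and from 6569 to 3509 between the C2C12 lines with DESeq2. Limma on log2(RPKM + 1) called 180, 1, 6 and 5880 in the same order, and without a filter 21, 1, 0 and 5370. Of 96 recomputed single-well ratios, with a prior count of 0.5 or without TMM, those with a full counting interval stayed within it. The Hey2 ratios to the well with 0 reads have no upper limit and went from 1.826 to 3.483 (HEK-Jag1WT) and from 1.12 to 2.509 (HEK-Jag1Ndr) with a prior count of 0.5. Few reads limit Hey2 in every well and Nrarp and Gata3 in most. No paired analysis was possible because the labels give no replicate numbers to pair by, beyond the terms for both lines that the fit already holds, which compare partners within a C2C12 line.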
